A study of Mus musculus with 2 samples.

Results

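The receptors described here bind lipid mediators or small metabolites at the cell surface. The group consists of Cysltr1, Ptgir, Hcar2 and every gene in the platform annotation whose symbol begins with Ptger, Cysltr or Ltb4r. It held 8 of the 4331 genes named by single-gene probes: Cysltr1, Hcar2, Ltb4r1, Ptger1, Ptger2, Ptger3, Ptger4 and Ptgir. These were read by 9 of 4654 single-gene probes, 2 of them for Ptger2 and 1 for each other gene. Cysltr1, Ptgir and Hcar2 were chosen because their ratios lead both sides of the comparison, so their values describe that choice and support nothing further.

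Gamma delta T cells carrying CD5, a T cell surface glycoprotein, were taken from spleens of mice with the LAT3YF allele and of wildtype mice. LAT is the adaptor protein that links the activated T cell receptor to downstream enzymes, and YF is shorthand for tyrosines replaced by phenylalanine. Cells were enriched with magnetic beads against CD5 and then sorted by flow cytometry, and total RNA of both populations was hybridised to 2 two-colour arrays with opposite dye assignment, called + polarity and - polarity in the labels (the + array and the - array below). Mouse age, strain background, pooling and the number of animals do not appear in the sources used here. The labels name no separate animals or extracts for the arrays, so the pair counts as 1 replicate, no test of the difference was possible, and each SD below covers technical error between 2 arrays only.

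Each deposited value is 1 log ratio of the channels, read as base 10 because the base is not stated. Folds rest on that reading, and Cysltr1 at 14.8-fold would be 2.25-fold if the base were 2. The - array was multiplied by -1 so that both arrays run the same way. Positive values then mark RNA more abundant in 1 population and negative values RNA more abundant in the other. The labels do not say which dye each population carried or which channel is on top of the ratio, so which side is LAT3YF is unknown, and every statement of direction below holds with the populations exchanged. A gene counted as past 2-fold when the mean of its log10 ratios reached 0.301 in size with the same sign on both arrays, which is a rule of size and not a test. The files hold ratios without intensities, so a receptor that was scarcely detected cannot be told from one that was abundant and equal. For the same reason the presence of the labelled cell type could not be checked by level. Trdc and the Trgc genes, which encode the constant parts of the gamma delta T cell receptor, were not among the named genes. The CD3 chain genes Cd3d, Cd3e and Cd3g had ratios of -0.00738, 0.110 and 0.0954.

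All of these receptors span the membrane and signal through G proteins. Prostanoids are made from arachidonic acid by cyclooxygenases. The prostacyclin receptor (Ptgir) and the prostaglandin E2 receptors EP2 (Ptger2) and EP4 (Ptger4) raise cyclic AMP, which restrains T cell receptor signalling in many settings, whereas EP1 (Ptger1) raises calcium and EP3 (Ptger3) mainly lowers cyclic AMP. Leukotrienes come from arachidonic acid by the lipoxygenase route: CysLT1 (Cysltr1) binds cysteinyl leukotrienes, and BLT1 (Ltb4r1) binds leukotriene B4 and guides leukocytes. Hcar2 binds the ketone body beta-hydroxybutyrate and also niacin, lowers cyclic AMP, and is known from fat cells, macrophages and neutrophils.

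The stretches before the start sites of Ptgir, Ptger4 and Ptger2 are shown because these prostanoid receptors raise cyclic AMP and their gene-level ratios, positive on both arrays, differed in size. They were picked with these values in view. A further prostanoid receptor that raises cyclic AMP, DP1 (Ptgdr), changed sign between the arrays and is not shown. Each is the 250 bases before the RefSeq start (GRCm38.p6), 5′ to 3′ on the strand of the gene. Ptgir lies at chr7:16906240-16906489 (+ strand), Ptger4 at chr15:5244188-5244437 (- strand) and Ptger2 at chr14:44987861-44988110 (+ strand). Capitals mark GGAAA, the core bound by NFAT factors, and GGGCGG, the core bound by Sp1, on either strand.
Ptgir: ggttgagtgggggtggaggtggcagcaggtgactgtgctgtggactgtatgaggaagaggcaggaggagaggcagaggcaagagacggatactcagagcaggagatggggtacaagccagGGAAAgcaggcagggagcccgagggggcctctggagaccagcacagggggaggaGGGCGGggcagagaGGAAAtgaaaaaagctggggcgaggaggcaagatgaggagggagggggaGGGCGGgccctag
Ptger4: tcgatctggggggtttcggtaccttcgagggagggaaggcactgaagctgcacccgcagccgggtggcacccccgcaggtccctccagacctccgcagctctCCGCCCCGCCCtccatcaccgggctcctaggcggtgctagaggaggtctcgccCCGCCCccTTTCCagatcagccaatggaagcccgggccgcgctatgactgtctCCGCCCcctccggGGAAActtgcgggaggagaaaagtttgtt
Ptger2: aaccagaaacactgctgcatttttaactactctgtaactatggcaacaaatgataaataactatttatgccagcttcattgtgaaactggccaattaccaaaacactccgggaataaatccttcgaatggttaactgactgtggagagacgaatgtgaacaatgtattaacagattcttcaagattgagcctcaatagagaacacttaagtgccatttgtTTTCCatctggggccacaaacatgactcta

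The Ptgir window held 2 matches to GGAAA and 2 to GGGCGG. The Ptger4 window held 2 matches to GGAAA and 4 to GGGCGG, of which 2 GGGCGG matches on the opposite strand overlapped each other by their end base. The Ptger2 window held 1 match to GGAAA and 0 to GGGCGG. Across all 32851 RefSeq windows of this length, 55.6% held GGAAA and 32.7% held GGGCGG. The GC content was 63.6% for Ptgir, 66.8% for Ptger4 and 38.0% for Ptger2, against a median of 52.4% over all windows. The windows not shown had 62%, 3 GGGCGG matches and 0 GGAAA matches for Ptger3, and 56.8%, 1 and 1 for Ltb4r1. GC content and GGGCGG matches were not ordered as the ratios of these receptors. GGAAA matches were most numerous for Ptgir and Ptger4, which had the highest ratios of these receptors. Windows were found for 5 receptor genes only, without Cysltr1 and Hcar2, and no relation to the ratios was tested. TGACG, the short form of the cyclic AMP response element, had 0 matches in each of the 3 windows shown and was present in 17.8% of all windows. GATAA, a core bound by GATA factors, had 1 match, in the Ptger2 window, and was present in 22.6% of all windows. A match to letters is a description of the sequence and shows neither binding nor use.

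Of the 8 receptor genes, 3 lay past 2-fold on the positive side (Cysltr1, Ptgir and Ptger4), 1 on the negative side (Hcar2), and 4 were not past 2-fold (Ptger1, Ptger2, Ptger3 and Ltb4r1). Over all named genes, 3.72% were past 2-fold on the positive side and 5.03% on the negative side, 8.75% in all. Since 3 of the 8 were picked on this very contrast, nothing is read from that count. Of the 5 genes that entered by their symbol alone, 1 was past 2-fold. The smallest receptor ratio past the threshold was that of Ptger4 (0.372) and the largest below it that of Ptger2 (0.168).

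**Figure D1:**
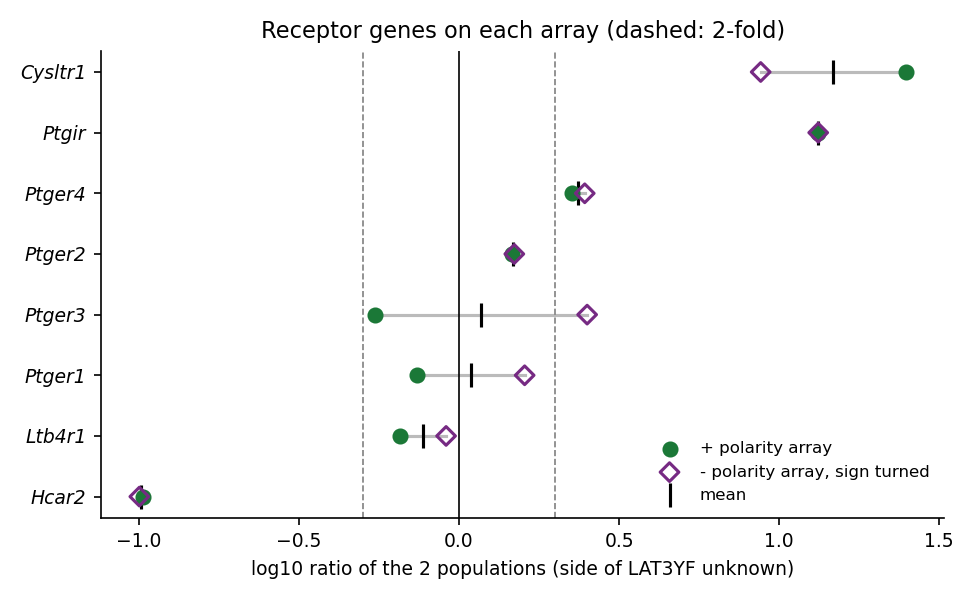
Log10 ratio of each receptor gene (horizontal axis) on the + array (filled circles) and on the - array after turning its sign (open diamonds), with the mean as a vertical tick and 2-fold as dashed lines. Ptgir and Hcar2 have nearly coincident symbols, Cysltr1 is spread from 0.942 to 1.40, and the symbols of Ptger1 and Ptger3 lie on opposite sides of 0.

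Among the prostanoid receptors, Ptgir stood far above the rest. Its log10 ratio was 1.12 on the + array and 1.12 on the - array, a mean of 1.12 (13.2-fold), the 4th highest of 4331 genes. The deposited values of Ptgir were equal in size to the last digit, which occurred for 1 gene of 4331, so its SD of 0 is no measure of its error.

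Ptger4, the EP4 receptor of prostaglandin E2, lay on the same side with a smaller ratio. It had 0.352 on the + array and 0.393 on the - array, a mean of 0.372 ± 0.029 (SD over 2 arrays), or 2.36-fold, and ranked 106 among all genes from the positive end. Both arrays were past 2-fold on their own.

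Ptger2, the EP2 receptor, had 0.164 on the + array and 0.173 on the - array, a mean of 0.168 ± 0.0061 (1.47-fold). This small SD hides a disagreement between its probes. Its first listed probe gave 0.358 and 0.200 on the + and - arrays (mean 0.279, 1.90-fold), whereas the other probe gave -0.0292 and 0.146 (mean 0.0582). The gap between the probe means, 0.221, was larger than the gene's mean, and neither probe mean was past 2-fold.

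Ptger3 and Ptger1, the receptors EP3 and EP1, changed sign between the arrays. Ptger3 had -0.263 on the + array and 0.400 on the - array, so that its mean of 0.0684 ± 0.47 was far below its spread. Ptger1 had -0.132 on the + array and 0.205 on the - array, with a mean of 0.0366 ± 0.24. The part of the ratio that was alike on both arrays before turning was -0.332 for Ptger3 and -0.168 for Ptger1. With opposite signs this part exceeds the mean in size by arithmetic. It holds dye effect and array error together, which 1 dye-reversed pair cannot separate. Signs that did not match were common on these arrays, at 40.4% of all named genes, a share that includes genes at exactly 0 on an array.

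Genes of related lists are called measured below where a single-gene probe names them. Of the 4 remaining prostanoid receptor genes, which do not carry the Ptger symbol, 0 were past 2-fold, against 8.75% of all named genes. A list of 4 is too short to differ from that share. Ptgdr, the prostaglandin D2 receptor DP1, had -0.163 and 0.351 on the + and - arrays, and Ptgfr, the receptor of prostaglandin F2 alpha, had -0.152 and 0.243. Both thus showed the same change of sign as Ptger1 and Ptger3. Ptgdr2, which encodes the prostaglandin D2 receptor CRTH2 found on type 2 lymphocytes, was near equality at -0.0322 ± 0.024. Tbxa2r, the thromboxane receptor, was the lowest of the 9 prostanoid receptor genes at -0.273 ± 0.0097, short of 2-fold, with both arrays negative.

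Among the leukotriene receptors, Cysltr1 had the highest ratio and Ltb4r1 a small negative one. Cysltr1 had 1.40 on the + array (24.9-fold) and 0.942 on the - array (8.76-fold), a mean of 1.17 ± 0.32 (14.8-fold), the 3rd highest of all genes. The arrays agreed on the side and on a difference well past 2-fold but not on its size, and the gap between them was 0.454. Of the 4331 genes, 9.24% had a larger SD than Cysltr1, against a median SD over all genes of 0.0579.

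Ltb4r1, the leukotriene B4 receptor BLT1, had -0.186 on the + array and -0.0404 on the - array, a mean of -0.113 ± 0.10 (1.30-fold). Its mean was about the size of its SD, and 34.4% of all named genes had a mean of at least this size. Oxgr1, a further receptor reported for leukotriene E4, changed sign (-0.185 and 0.181 on the + and - arrays). Of the receptors for other leukocyte attractants, Fpr2, a formyl peptide and lipoxin receptor, was past 2-fold on the negative side at -0.490 ± 0.044 (3.09-fold), and Cmklr1, a chemerin receptor, had 0.354 and -0.576 on the + and - arrays.

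Hcar2 was the only receptor of the group past 2-fold on the negative side. Its ratio was -0.987 on the + array and -0.999 on the - array, a mean of -0.993 ± 0.0081 (9.83-fold), the 8th lowest of all genes. Of the 4331 genes, 18 had a mean of at least this size in either direction. The only other metabolite receptor measured, the adenosine receptor gene Adora3, was at 0.0317 ± 0.065 with opposite signs on the arrays.

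**Figure D2:**
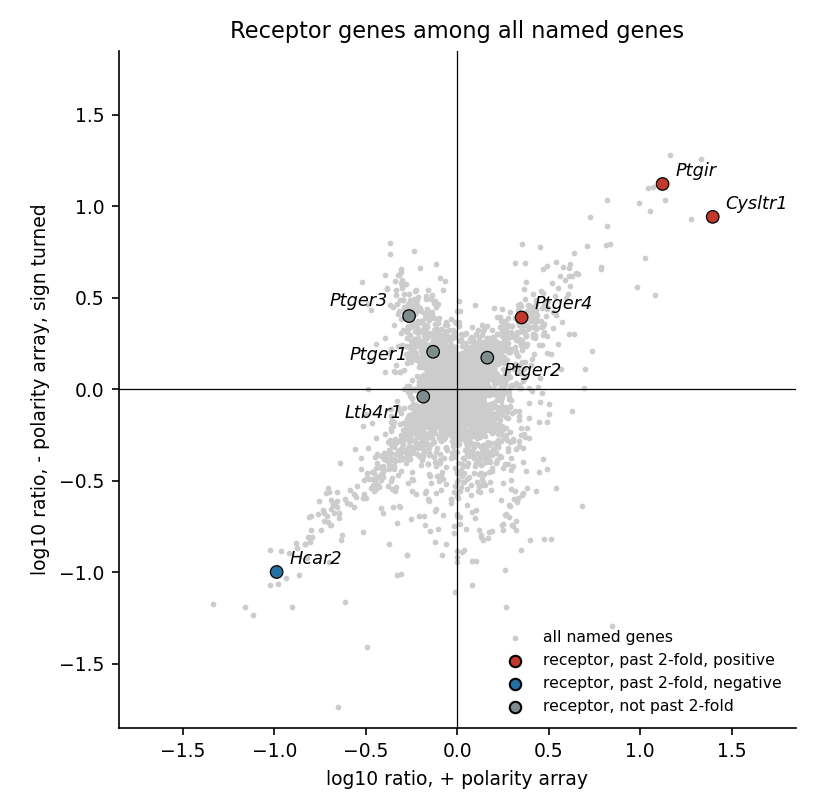
Log10 ratio on the + array (horizontal axis) against the sign-turned log10 ratio on the - array (vertical axis) for 4331 named genes (grey) and the 8 receptor genes (labelled, red or blue where past 2-fold). Ptgir, Cysltr1 and Hcar2 lie at the ends of the diagonal, Ptger4 and Ptger2 on its positive arm, and Ptger1 and Ptger3 at the upper left, where the arrays disagree in sign.

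The genes closest to each leading receptor were taken by the Euclidean distance over the ratios of the 2 arrays, which measures likeness of 2 values only. Cysltr1 was nearest to Rrm2, a subunit of ribonucleotide reductase (distance 0.118, mean 1.11), followed by the protease gene Bace2 (0.275) and the macrophage growth factor gene Csf1 (0.321). Ptgir was nearest to Klrg1, an inhibitory lectin receptor of effector lymphocytes (0.0544, mean 1.09), followed by the adhesion molecule gene Cntn1 (0.0849) and Bace2 (0.0873). Hcar2 was nearest to Klrd1, the gene of the NK cell lectin CD94 (0.0285, mean -0.979), followed by the macrophage mannose receptor gene Mrc1 (0.0598) and the adhesion molecule gene Vcam1 (0.0657).

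Receptors for other lipids gave 0 of 14 measured genes past 2-fold, against 8.75% of all named genes. A count of 0 in a list this short lies near that share. Of 14 measured genes for lysophospholipid, sphingolipid, oxysterol, cannabinoid and related receptors, 9 had a mean above 0 and 5 below, with a median of 0.0242 against 0.00231 over all named genes. The largest ratios were those of Gpr34, a lysophosphatidylserine receptor found on myeloid cells, at -0.278 ± 0.27, the cannabinoid receptor gene Cnr2 at -0.173 ± 0.015 and Gpr174, a lysophosphatidylserine receptor of lymphocytes, at 0.159 ± 0.058.

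The enzymes that make the ligands were sparsely measured. Of the prostanoid synthesis list, 1 of 16 genes was measured, the inducible cyclooxygenase gene Ptgs2, at -0.199 ± 0.030, which is not past 2-fold. Of the leukotriene synthesis list, 3 of 14 were measured. Lta4h, the hydrolase that makes leukotriene B4, was past 2-fold on the negative side at -0.459 ± 0.031 (2.88-fold). Ltc4s, the synthase that makes the first cysteinyl leukotriene, was near equality at -0.0381 ± 0.0070, and Abcc1, a transporter that exports it, was at 0.243 ± 0.055. The gene of the leukotriene B4 enzyme lay on the side opposite to Cysltr1.

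Few signalling genes downstream of the receptors were measured, too few to set their counts apart from the background. Of 13 measured cyclic AMP signalling genes, 0 were past 2-fold, against 8.75% of all named genes. Their median size without regard to sign was 0.0969, against 0.0732 over all named genes. Of the 13, 8 had a mean above 0 and 5 below, and the median was 0.0216. The largest were Adcy6, an adenylyl cyclase, at -0.275 ± 0.013, the phosphodiesterase gene Pde8a at -0.236 ± 0.098 and Pde4a, a phosphodiesterase that breaks down cyclic AMP, at 0.189 ± 0.0016. Of the G protein genes, 0 of 4 measured were past 2-fold. The largest mean was that of Gnb4, which changed sign (-0.143 and 0.491 on the + and - arrays). Gnas, the stimulatory alpha subunit used by EP2, EP4 and the prostacyclin receptor, was at -0.0960 ± 0.0026. Gnai2, an inhibitory alpha subunit used by Hcar2 and BLT1, was at 0.0960 ± 0.0029. Likewise 0 of 14 measured genes of phospholipase C and calcium signalling were past 2-fold, with a median of -0.0188. They were led by the calmodulin gene Calm3 at 0.239 ± 0.043 and the protein kinase C genes Prkcb (-0.183 ± 0.021) and Prkch (-0.178 ± 0.11).

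Of 7 measured genes that quench receptor signals, 2 were past 2-fold, both negative, against 5.03% of all named genes on that side. These were Rgs10 at -0.810 ± 0.0042 (6.46-fold) and Rgs2 at -0.701 ± 0.036 (5.03-fold), which encode regulators that speed the shut-off of G protein alpha subunits. The other 5 had means between -0.270 (the receptor kinase gene Grk4) and 0.190 (Rgs3).

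Most genes of the macrophage, monocyte and dendritic cell list and of the B cell list had negative means, as did Hcar2. So did 5 of 5 measured platelet and erythroid markers. In the other cell type lists this held for 2 of 5 neutrophil, 3 of 6 mast cell, basophil and eosinophil, and 4 of 13 T cell markers. Of 22 measured macrophage, monocyte and dendritic cell markers, 16 were past 2-fold on the negative side, against 5.03% of all named genes. On the positive side 0 were past 2-fold, against 3.72%. In this list 21 had a mean below 0, and the median was -0.645, against 0.00231 over all named genes. The lowest were the ferroportin gene Slc40a1 (-1.17), the macrophage receptor gene Adgre1 (-1.05), Vcam1 (-1.02) and Mrc1 (-0.982). Hcar2 at -0.993 thus lay near the low end of their range. Flt3 (-0.243 ± 0.26), Itgam (-0.0221 ± 0.012) and Xcr1 (0.0402 ± 0.11, opposite signs on the arrays) of the same list were not past 2-fold. Of 11 B cell markers, 4 were past 2-fold on the negative side (Ighm, Cd72, Blnk and Cd79b), against 5.03% of all named genes. Their median was -0.245, and 10 had a mean below 0. The exception was Cd22 at 0.193 ± 0.024, positive on both arrays. The neutrophil list, for a further cell type known for Hcar2, had 0 of 5 measured genes past 2-fold and a median of 0.0132. Over all named genes 8.75% were past 2-fold, and 5 genes are too few to differ from that share. The part of these markers in the Hcar2 ratio was not tested, and in bulk RNA fewer cells of a type and less RNA per cell cannot be told apart.

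The positive side of Cysltr1, Ptgir and Ptger4 carried 0 of the 22 macrophage and dendritic cell markers and 0 of the 11 B cell markers past 2-fold. Over all named genes the share on that side was 3.72%, and counts of 0 in lists this short lie near it. Mast cells, basophils and eosinophils, which are known to carry CysLT1, had 6 of 16 markers measured. Of these, 0 were past 2-fold, against 8.75% of all named genes, and 3 had a mean above 0. Their median was -0.0918. The largest ratios were those of the stem cell factor receptor gene Kit (-0.298 ± 0.070), the interleukin-5 receptor gene Il5ra (-0.218 ± 0.12) and the IgE receptor chain gene Ms4a2 (-0.213 ± 0.0071). Platelets are known to carry the prostacyclin receptor. Of 5 platelet and erythroid markers, 0 were past 2-fold on the positive side and 2 on the negative side, the erythroid genes Epor and Hba-a1. The shares over all named genes were 3.72% and 5.03%. Neither platelet gene was past 2-fold: Pf4 changed sign (0.294 and -0.543 on the + and - arrays) and Itga2b was at -0.0969 ± 0.013. Of 13 T cell markers, 9 had a mean above 0 and 4 below, with a median of 0.0954. The lowest were the costimulatory receptor gene Cd27 at -0.207 ± 0.029 and the CD3 zeta chain gene Cd247 at -0.185 ± 0.13. Cd2 was at 0.205 ± 0.0086, positive on both arrays and not past 2-fold. Past 2-fold were 2 on the positive side (3.72% of all named genes) and 0 on the negative side, namely Cd5 at 0.614 ± 0.0077 (4.11-fold) and Sox13, a transcription factor gene of gamma delta T cells, at 0.465 ± 0.034 (2.92-fold). Cd5 encodes the molecule through which both populations were isolated.

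**Figure D3:**
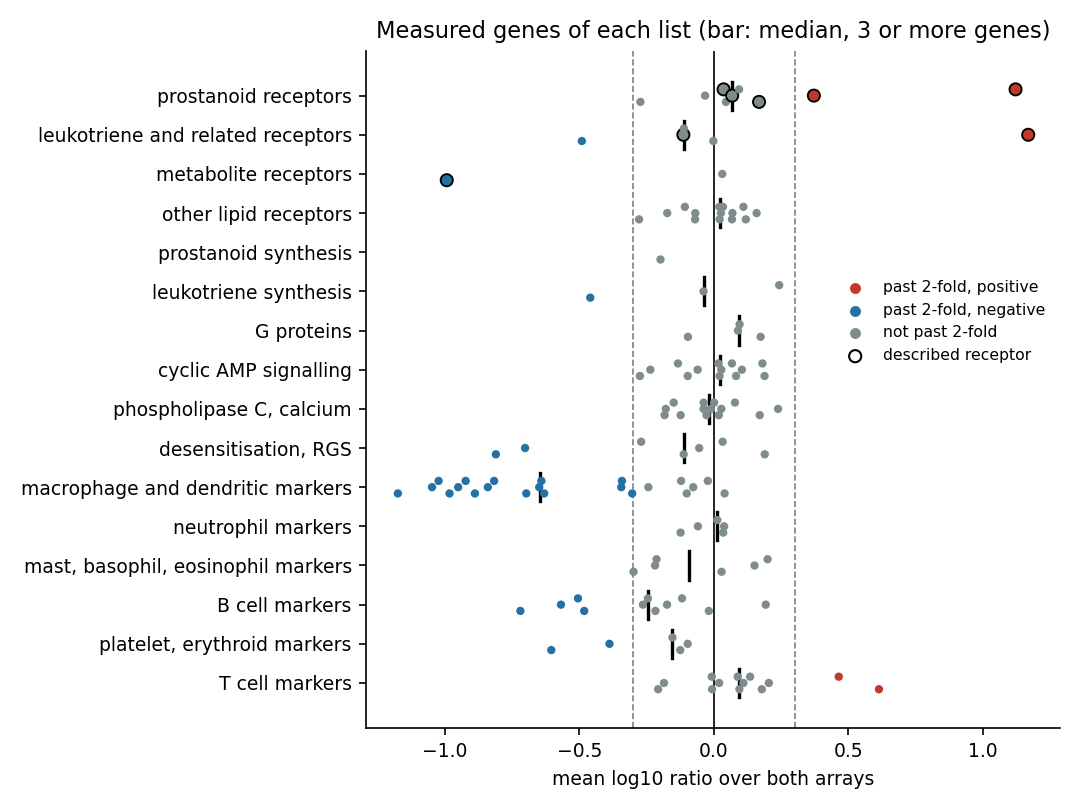
Mean log10 ratio over both arrays (horizontal axis) of every measured gene in each list (rows), red or blue where past 2-fold, with black outlines on the receptor genes described here and bars at the median of lists with 3 or more genes. The outlined prostanoid receptor genes run from 0.0366 (Ptger1) to 1.12 (Ptgir). Hcar2, in the row of metabolite receptors, is at -0.993. The macrophage and dendritic cell markers have a median of -0.645 and reach down to -1.17.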

How the data were processed

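The deposited table holds, per probe and array, 1 log ratio of the channels made by the authors. The deposited values were read as log10 ratios, since no base is stated. The labels call the arrays ratio profiles of a dye reversal, without naming the dyes. The sources used here leave out the numerator, the image analysis, the background correction and the normalization. The deposited medians were -0.00284 (+ polarity) and 0.00101 (- polarity), so values were already centred. Their SD across probes was 0.198 (+ polarity) and 0.256 (- polarity). Before turning, the columns correlated only weakly across probes, at Pearson r = -0.301 and Spearman -0.154.

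Of 8014 probes, 4654 had 1 gene in the platform annotation, 73 several and 3287 none listed. Probes with several genes or none were not used. The RefSeq table (GRCm38.p6) held the gene identifiers of 4640 of the 4654. The - polarity array was multiplied by -1, probes of a gene were averaged per array, then the arrays (Python 3.11.15, pandas 2.3.3). The part of a ratio that is alike on both arrays is the mean of the 2 deposited values, before turning. It holds the dye effect together with array error. The code that applies the size rule was tested on simulated data, which says nothing about the threshold. The number of arrays limits precision.

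Genes named from each of 16 lists were up to 4 past 2-fold and up to 3 others, by size, plus the 3 genes nearest to each leading receptor. Not every gene that this rule allows is named. Cd3d, Cd3e, Cd3g, Cd22, Itgam, Xcr1, Ptgfr and Ptgdr2 lie outside this rule and were picked with their values in view. Members and lists were chosen with earlier results of these data known. Sequences are RefSeq's, and 5 of 8 receptor genes matched. Alternatives were single arrays, centred or scaled arrays, other probe summaries, thresholds and log bases.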

Additional observations from a re-analysis of the deposited data

How the results depend on the processing

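The receptor counts, 3 positive and 1 negative, were the same on the + polarity array alone, with centred or scaled arrays, with other summaries of probes, at 1.5-fold and when each array had to pass. The - polarity array alone added Ptger3, and the positive count over single arrays ranged from 3 to 4 and the negative count stayed at 1. At 3-fold Ptger4 dropped out, leaving 2 positive. Read as log2, the values left 2 positive and 0 negative receptors, since Hcar2 would be 1.99-fold and Cysltr1 2.25-fold. Read as natural logs, they left 2 and 1. The count over all named genes was 379, and 452 to 742 on single arrays, 774 at 1.5-fold, 144 at 3-fold, 17 as log2, 62 as natural logs and 584 with probes that name no single gene added. In 32 recomputed receptor means that used both arrays, 0 changed sign, but many of them could not move. Every receptor gene except Ptger2 has 1 probe, so other summaries of probes left its value as it was. For Ptger2 the median of its 2 probes is their mean. The largest move was 0.110, for Ptger2 with only the probe whose arrays differed less. On the + polarity array alone Ptger1 (-0.132) and Ptger3 (-0.263) turned negative. Without intensities, no receptor's detection could be judged, and 1 dye-reversed pair gives no replicate of the populations. No paired analysis was possible because the arrays form 1 group without a second one to pair.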
